A study of Homo sapiens with 9 samples.

Results

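The genes described here are 41 type I interferon-stimulated genes, a list of well-known interferon targets chosen by gene symbol, each identifier being taken once. All 41 were found among the 62710 gene identifiers of the count table, and they lie on 15 chromosomes. Their mRNA was measured by RNA-sequencing in wild-type HT-29 cells, a human colorectal adenocarcinoma line with an epithelial phenotype, with 3 libraries per condition. The cells received ADP-heptose at 500 ng/mL or flagellin at 500 ng/mL, or were left non-stimulated, and were harvested after 2.5 h in each case. ADP-heptose is a sugar nucleotide that bacteria make on the way to lipopolysaccharide and that is sensed in the cytosol by the kinase ALPK1, whereas flagellin is the protein of the bacterial flagellum and is sensed by TLR5. The experiment asked how the ALPK1 ligand changes transcription in colorectal cancer cells, with flagellin as another bacterial stimulus.

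Type I interferons bind the IFNAR1 and IFNAR2 receptor chains, and the kinases JAK1 and TYK2 then signal to the transcription factor complex ISGF3, which contains STAT2 and IRF9. ISGF3 binds the interferon-stimulated response element (ISRE) in the promoters of its targets, whose products sense viral RNA, degrade it, block its translation or keep viruses out of the cell. Some of these promoters are also read by IRF1, IRF3 or NF-κB, so that single interferon-stimulated genes can be switched on without interferon.

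The promoters were searched for 3 short patterns in RefSeq windows of 250 bases before to 50 bases after the start of transcription (GRCh38.p14), on both strands. Windows were held for 35 of the 41 genes, the genes with no matching entry being IFIT2, IFITM2, MX2, OAS2, OASL and USP18. The ISRE core GAAANNGAAA was present in 26 of the 35 windows (74.3%), against 4.38% of the windows of 27305 genes. The GAS core TTCNNNGAA, an element known from interferon gamma targets, was present in 11 windows (31.4%), against 9.38% of all genes. A match to the NF-κB consensus was present in 5 windows (14.3%; BST2, IFIH1, IFITM3, OAS3 and XAF1), against 7.09% of all genes. A match describes letters and not a bound site, and overlapping matches were each counted.

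The stretch from 170 bases before to 10 bases after the start is shown for the 4 genes that rose after ADP-heptose and have a window, and for IFIT1 and ISG15, whose windows also hold ISRE cores but which did not pass the test, so that both kinds can be compared. Capitals mark ISRE cores and, in IFIH1 only, also the match to the NF-κB consensus, which is the capital run nearest the middle of its line. The stretches are chr15:88638846-88639025 on the plus strand for ISG20, chr2:162318675-162318854 on the minus strand for IFIH1, chr10:89414398-89414577 on the plus strand for IFIT5, chr3:122680669-122680848 on the plus strand for PARP14, chr10:89392453-89392632 on the plus strand for IFIT1 and chr1:1013327-1013506 on the plus strand for ISG15.
ISG20: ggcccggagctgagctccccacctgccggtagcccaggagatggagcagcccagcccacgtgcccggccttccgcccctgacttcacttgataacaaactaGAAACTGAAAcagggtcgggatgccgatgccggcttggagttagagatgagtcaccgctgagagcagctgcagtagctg
IFIH1: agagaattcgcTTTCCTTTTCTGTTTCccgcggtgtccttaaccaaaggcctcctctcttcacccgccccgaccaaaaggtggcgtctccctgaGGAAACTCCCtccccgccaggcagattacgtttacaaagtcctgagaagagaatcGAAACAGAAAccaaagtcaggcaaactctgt
IFIT5: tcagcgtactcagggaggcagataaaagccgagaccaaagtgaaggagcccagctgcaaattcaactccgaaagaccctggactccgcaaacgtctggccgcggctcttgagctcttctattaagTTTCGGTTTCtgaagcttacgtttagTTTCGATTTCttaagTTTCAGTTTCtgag
PARP14: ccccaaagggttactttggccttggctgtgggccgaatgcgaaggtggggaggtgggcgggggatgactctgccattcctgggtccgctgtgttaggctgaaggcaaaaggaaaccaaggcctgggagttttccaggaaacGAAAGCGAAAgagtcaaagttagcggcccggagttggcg
IFIT1: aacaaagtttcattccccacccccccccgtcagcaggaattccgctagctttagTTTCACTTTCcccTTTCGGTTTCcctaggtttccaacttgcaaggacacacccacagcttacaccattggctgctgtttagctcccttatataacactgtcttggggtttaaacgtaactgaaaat
ISG15: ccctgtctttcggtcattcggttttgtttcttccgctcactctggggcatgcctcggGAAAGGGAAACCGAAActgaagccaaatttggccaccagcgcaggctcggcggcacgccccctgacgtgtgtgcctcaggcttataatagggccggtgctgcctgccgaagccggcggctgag
IFIH1 held 3 ISRE cores, of which the nearest began 21 bases before the start and the others overlapped each other, and its NF-κB match began 76 bases before the start. ISG20 held 1 core, beginning 69 bases before the start, and PARP14 held 1, beginning 29 bases before it. IFIT5 held 3 cores within the last 45 bases before the start, the last of them reaching 6 bases past it. IFIT1 and ISG15 each held 2 cores, which began 116 and 103 bases and 113 and 107 bases before the start. Cores were thus present in promoters of genes that passed the test and of genes that did not pass it: 20 of the tested members had a core, of which 4 rose after ADP-heptose (7.48% of all genes rose), and 5 tested members had a window without a core, of which 0 rose. In the fit without ADP-heptose replicate 3, described below, DTX3L, OAS3 and SAMD9, which also had a core, rose as well. EIF2AK2 and MX1, which had a core too, fell in that fit. Among all genes 11.2% rose and 7.07% fell there. The median log2 fold change was 0.26 for members with a core and 0.43 for those without. The latter is the value of IFI35, the middle of the 5 genes. Without ADP-heptose replicate 3, IFI35 was still the middle of the 5 genes and gave 0.15. In that fit the median of the 20 members with a core fell as well. It lay between the values of IFIT3 (0.067) and PLSCR1 (0.12). The members with a core thus had the lower median with and without that library.

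Library totals were 35040844 to 37537705 counts in the non-stimulated group, 30770448 to 38304035 after flagellin and 50054773 to 58272772 after ADP-heptose. Of 8 intestinal epithelial markers 7 were high enough to test, while CDX1 had between 0 and 12 counts. Their summed level was 7749 to 7974 CPM (counts scaled to library size) in the non-stimulated libraries, 7840 to 8056 after flagellin and 7972 to 10290 after ADP-heptose. KRT8 and KRT18 had the highest levels in this sum. CDX2 was low, with a mean of 45.8 normalized counts (defined below) without stimulation and 24.0 after ADP-heptose. Its log2 fold change was −0.95 (adjusted p = 0.19 by edgeR). Of 6 leukocyte markers 3, among them CD3E, were at 0 in every library, the highest count of the others being 13, and the highest endothelial marker count was 4. Of 4 fibroblast markers COL1A1 was measured, with a summed list level of 12.8 to 15.3 CPM without stimulation and 16.3 to 17.5 CPM after ADP-heptose, whereas COL1A2 and DCN were at 0. COL1A1 rose after ADP-heptose (log2 fold change 0.41, adjusted p = 0.0311 by edgeR), and KRT20, an epithelial keratin, rose likewise (0.40, adjusted p = 0.000941), and their part in the results was not tested. ADP-heptose replicate 3 was unlike replicates 1 and 2. Over 12004 genes, its log2 differences from either had an SD of 0.38, compared with 0.13 between replicates 1 and 2 and at most 0.19 for any pair within the other groups. Results that move with this library are therefore given with and without it.

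Without stimulation, HT-29 cells already expressed many members of the list, at very unlike levels. Expression is given as normalized counts, that is, counts scaled to a common effective library size. After a filter on low counts 30 members could be tested, and 19 of these had a non-stimulated mean of at least 100 normalized counts, whereas 7 had fewer than 100 counts in every library. Per kilobase of exon, the highest member was LGALS3BP, a secreted glycoprotein that binds galectin, with a mean of 7738 normalized counts per kilobase over the 9 libraries. ISG15, a ubiquitin-like protein that is conjugated to other proteins, had 1140 and IFITM2, a membrane protein that hinders virus entry, had 636. LGALS3BP alone made up 55.8% of the summed normalized counts of the tested members. At the other end of the order stood UBE2L6 with 3.35, MX1 with 2.17 and OAS2 with 1.49 normalized counts per kilobase, so that levels differed by several orders of magnitude between members.

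**Figure D1:**
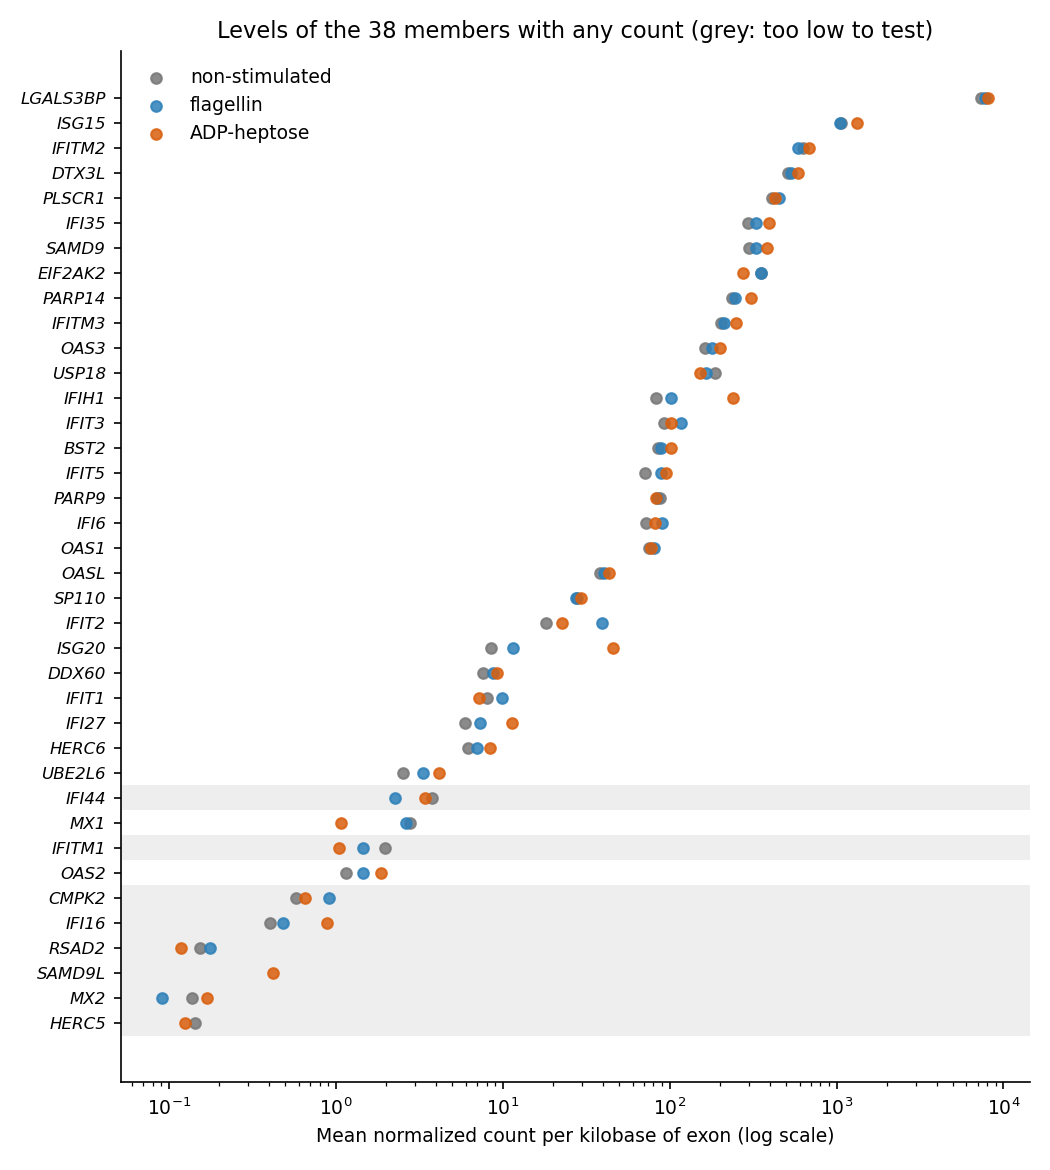
Mean normalized count per kilobase of exon (log axis) of the 38 members with any count, in non-stimulated (grey), flagellin (blue) and ADP-heptose (orange) cells, each point being the mean of 3 libraries and means of 0 not being drawn. The members spread from under 1 (members too low to test) to 7738 for LGALS3BP over all libraries, and for most of them the 3 points nearly coincide, ISG20 and IFIH1 being clearly displaced after ADP-heptose and IFIT2 after flagellin.

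The remaining 11 members were too low to measure: RSAD2, CMPK2, IFITM1, MX2, SAMD9L, HERC5, IFI16, IFI44, IFI44L, XAF1 and EPSTI1. None of them exceeded 14 counts in any library. IFI44L, XAF1 and EPSTI1 were at 0 in all 9 libraries, and a floor of 3 counts corresponds to 0.0515 to 0.0975 CPM per library, counting error only. RSAD2, which encodes the antiviral enzyme viperin, had 0 to 2 counts, HERC5, the main ligase for ISG15, had 0 to 2 counts, and MX2, a GTPase that restricts viruses at the nuclear pore, had 0 to 4. CMPK2, the mitochondrial nucleotide kinase encoded next to RSAD2, had 0 to 8 counts, IFITM1 0 to 3, IFI44 0 to 12 and IFI16, a DNA sensor, 0 to 14. SAMD9L had 4, 8 and 0 counts after ADP-heptose and 0 in the other 6 libraries. In IFITM1, moreover, 37.7% of the 100-base stretches of the transcript also occur in IFITM2 or IFITM3, so that reads could be shared or lost between them.

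As a sum, the 41 genes took 1177 to 1229 CPM in the non-stimulated libraries, 1234 to 1289 CPM after flagellin and 1221 to 1254 CPM after ADP-heptose, the last range overlapping with both others. Without LGALS3BP the sums were 517 to 542 CPM, 545 to 558 CPM and 486 to 599 CPM, the lowest on this scale being ADP-heptose replicate 3. These sums were scaled to raw library totals, unlike the normalized counts, which use effective library sizes. The normalization factors were 0.894 to 0.969 for the ADP-heptose libraries and 1.02 to 1.04 for the others. Scaled to effective sizes, the ADP-heptose sums would stand higher against the other groups. The overlap and the order given here apply to raw totals. In bulk RNA such as this, fewer responding cells and less RNA per responding cell cannot be told apart.

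After ADP-heptose, 4 of the 30 tested members rose and 0 fell (edgeR's quasi-likelihood test, Benjamini-Hochberg adjusted p under 0.05 over 17412 genes). The genes that rose were ISG20, IFIH1, IFIT5 and PARP14, with 5.40-fold, 2.90-fold, 1.33-fold and 1.30-fold higher levels. Among all 17412 genes 7.48% were called higher and 4.42% lower, compared with 13.3% and 0% of the tested members. Of the called members, ISG20 and IFIH1 changed at least 2-fold, a threshold passed upwards by 2.89% and downwards by 0.471% of all genes. With library totals in place of TMM normalization, which moved the median of all genes from 0.0087 to −0.13 on the log2 scale, the calls were 2 higher (IFIH1 and ISG20) and 2 lower (EIF2AK2 at −0.50 and USP18 at −0.44), and among all genes 917 higher and 1886 lower in place of 1302 and 770. DESeq2, run without the filter, called 5 of 38 members higher and 0 lower, against 4.42% and 2.9% of 33281 genes. The log2 fold changes of the 30 members had a median of 0.26, against 0.0087 for all genes, and ranged from −1.39 for MX1 to 2.43 for ISG20. They were above 0 for 25 of 30 members and for 51.1% of all genes, and 24 of the 30 lay within 0.5 of 0. At an unadjusted p under 0.05 there were 11 members, against 24.9% of all genes.

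**Figure D2:**
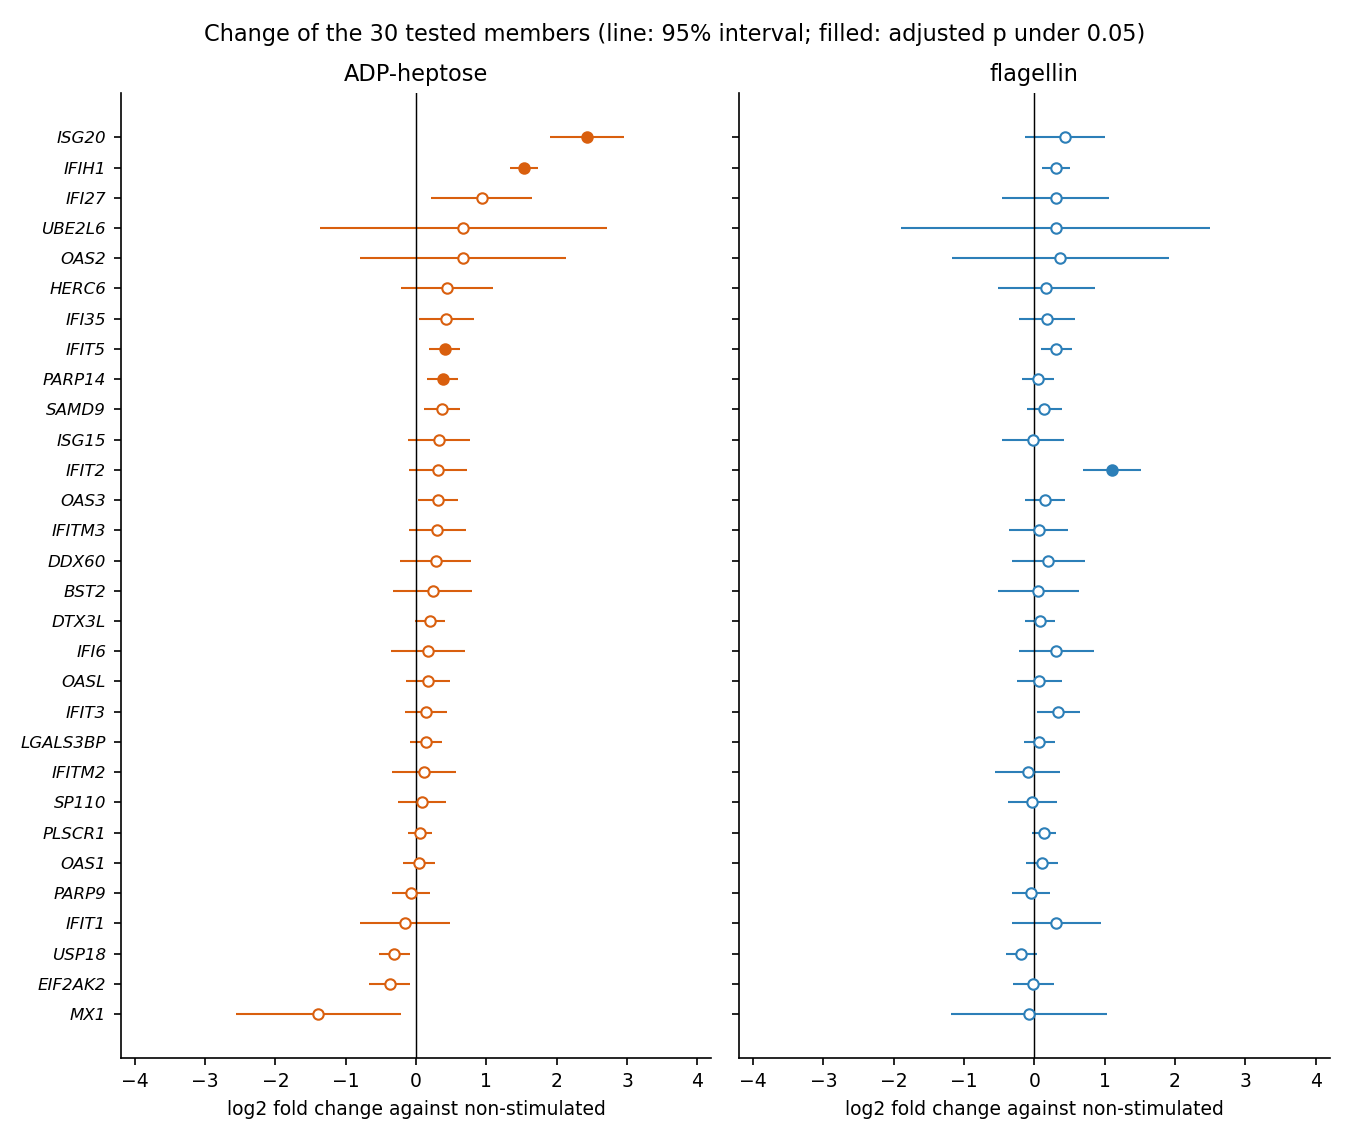
Log2 fold change (x axis) of the 30 tested members after ADP-heptose (left) and flagellin (right) against the same 3 non-stimulated libraries, with lines for the 95% interval of edgeR's fit and filled points for an adjusted p under 0.05. ISG20 at 2.43 and IFIH1 at 1.54 stand apart after ADP-heptose and IFIT2 at 1.11 after flagellin, while most of the other points lie within 0.5 of 0.

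Among the nucleic acid sensors, the gene that rose was IFIH1 (ENSG00000115267, chr2:162267079-162318703), which encodes MDA5, a cytosolic sensor of long double-stranded RNA. Its normalized counts were 413, 432 and 419.5 in the non-stimulated libraries, 511, 534 and 521 after flagellin and 1311, 1255 and 1096 after ADP-heptose. Every ADP-heptose library lay far above the other 6, and the flagellin libraries lay slightly above the non-stimulated ones. The log2 fold change was 1.54 ± 0.09 (SE; n = 3 libraries per group), with an adjusted p of 1.84e-07 by edgeR's quasi-likelihood test. Without ADP-heptose replicate 3 it was 1.61. The other sensor tested, the helicase DDX60, gave 0.28 with an adjusted p of 0.48 (95% interval −0.23 to 0.79), and 0.14 without that library.

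The largest change was that of ISG20 (ENSG00000172183, chr15:88636153-88656483), an exonuclease that degrades single-stranded RNA. Its 3 non-stimulated libraries had 53.6, 59.5 and 74.6 normalized counts, the flagellin libraries 57.9, 124 and 72.7, and the ADP-heptose libraries 309, 321 and 384. The ADP-heptose libraries did not overlap with any other library, whereas the flagellin libraries overlapped with the non-stimulated ones. ISG20 rose by 2.43 ± 0.24 on the log2 scale (SE; adjusted p = 2.32e-05, edgeR), and by 2.34 when ADP-heptose replicate 3 was left out. ISG20 and IFIH1 passed the test in all 17 refits with other normalizations, filters, tests or libraries, their log2 fold changes ranging from 2.29 to 2.58 and from 1.40 to 1.61.

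**Figure D3:**
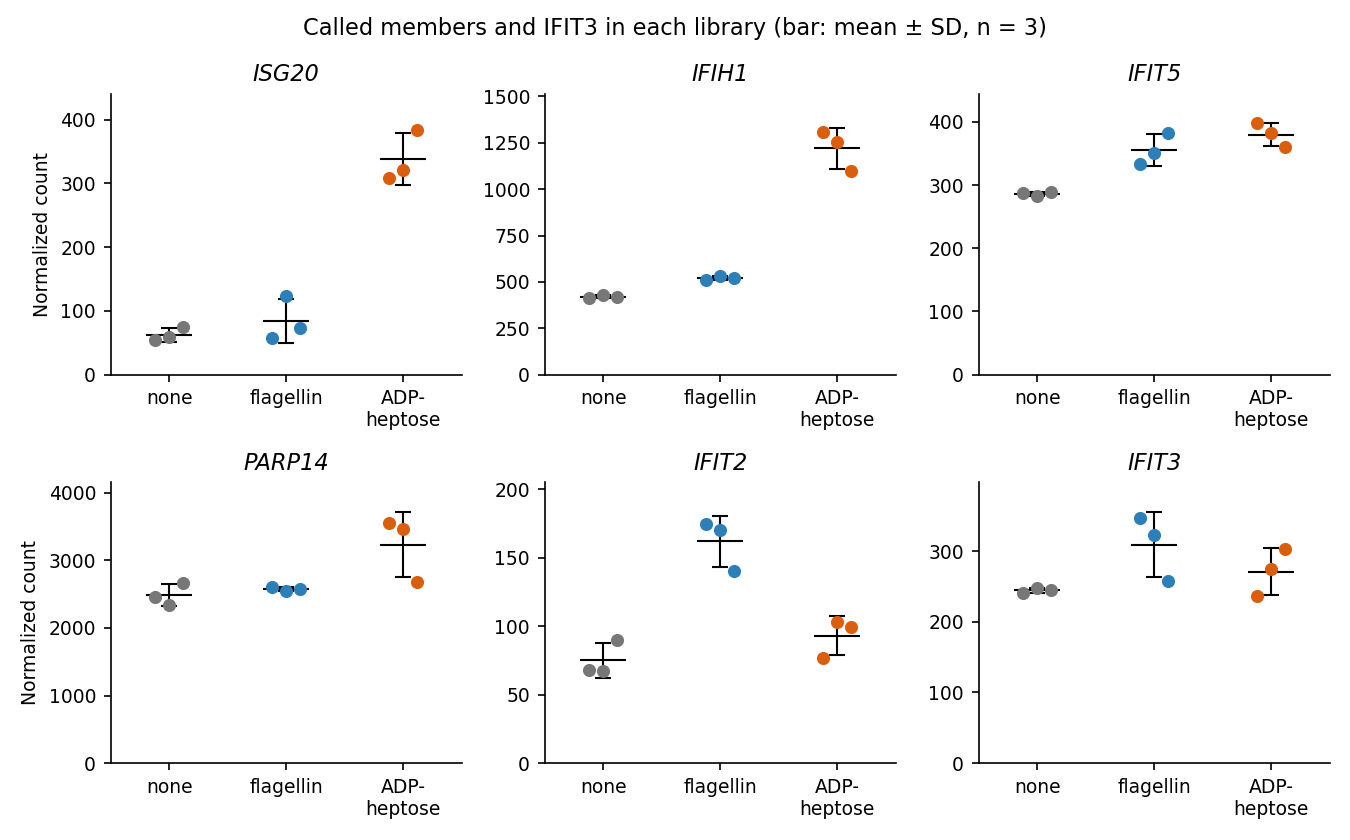
Normalized counts (y axes, from 0) in each of the 3 non-stimulated (none, grey), 3 flagellin (blue) and 3 ADP-heptose (orange) libraries of the 5 members that passed the test in any comparison and of IFIT3, with horizontal lines for the mean and bars for ± SD (n = 3). ISG20 lies at 309 to 384 and IFIH1 at 1096 to 1311 after ADP-heptose, well above the other libraries, while IFIT2 is highest after flagellin at 140.4 to 175 and PARP14 shows ADP-heptose replicate 3 close to the non-stimulated libraries.

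Of the 12 effectors that act on RNA and translation 10 were tested, ISG20 and IFIT5 rose, and the median log2 fold change was 0.24. IFIT5 (ENSG00000152778, chr10:89414586-89421001), which binds the 5′ ends of foreign RNA, had 288, 283 and 289 normalized counts without stimulation and 397, 382 and 360.3 after ADP-heptose, with no overlap. Its increase was small, 0.41 ± 0.10 on the log2 scale (SE; adjusted p = 0.0198, edgeR). The call was lost when ADP-heptose replicate 1 or 2 or any of the non-stimulated libraries was left out, with adjusted p between 0.0585 and 0.0779, and with library totals (adjusted p = 0.108), while without ADP-heptose replicate 3 the log2 fold change was 0.45. Its neighbours IFIT1, which recognises RNA lacking cap methylation, and IFIT3, which stabilises IFIT1 on RNA, gave −0.16 (adjusted p = 0.77) and 0.15 (adjusted p = 0.534), the latter 0.067 without ADP-heptose replicate 3.

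The OAS enzymes make the second messenger that activates RNase L. OAS1 had 371 ± 24.6 normalized counts without stimulation and 383 ± 32.6 after ADP-heptose (SD, n = 3), a log2 difference of 0.04 with an interval of −0.18 to 0.27. OAS2 had only 2 to 20 counts per library (0.67, adjusted p = 0.564), and OASL, which lacks this enzyme activity, gave 0.17 (adjusted p = 0.488). OAS3 had 1812 and 1918 normalized counts in ADP-heptose replicates 1 and 2 but 1253 in replicate 3, against 1278 to 1413 without stimulation, and gave 0.31 (adjusted p = 0.16). EIF2AK2, the kinase PKR that halts translation on double-stranded RNA, was lower in every ADP-heptose library (3274, 3371 and 2189) than in every non-stimulated library (3847, 3589 and 4018), with −0.37 and an adjusted p of 0.1.

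PARP14 (ENSG00000173193, chr3:122680618-122730840), a mono-ADP-ribosyltransferase, was the remaining gene that rose. Its normalized counts were 2461, 2338 and 2666 in non-stimulated cells, 2613, 2552 and 2574 with flagellin and 3548, 3468 and 2682 with ADP-heptose, so that replicate 3 stood only just above the highest non-stimulated library. The log2 fold change was 0.38 ± 0.10 (SE; adjusted p = 0.0299, edgeR) and 0.50 without ADP-heptose replicate 3. The adjusted p was between 0.054 and 0.126 when any other library was left out, and 0.178 with library totals. DTX3L, a ubiquitin ligase, and its partner PARP9, which share a promoter region and 3.70% and 2.43% of their exon bases on opposite strands, gave 0.20 (adjusted p = 0.237) and −0.07 (adjusted p = 0.74). SP110, a nuclear body protein, gave 0.09 (adjusted p = 0.762). Without ADP-heptose replicate 3, PARP9 turned to 0.054 and SP110 gave 0.14.

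Of the 9 genes that restrict entry or replication at membranes, 6 were tested, with adjusted p from 0.0638 upwards and a median log2 fold change of 0.17. IFITM2 and IFITM3, which hinder fusion of virus and cell membranes, gave 0.11 (adjusted p = 0.771) and 0.30 (adjusted p = 0.343), and IFITM3 0.018 without ADP-heptose replicate 3. BST2, known as tetherin, gave 0.24 (adjusted p = 0.602), which turned to −0.083 without that library. SAMD9, a restriction factor of poxviruses, gave 0.37 (adjusted p = 0.0638), and PLSCR1, a phospholipid scramblase, 0.06 (adjusted p = 0.694) and 0.12 without it. MX1, a GTPase that traps viral nucleocapsids, had 22, 16 and 29 counts without stimulation and 10, 5 and 18 counts after ADP-heptose. Scaled for depth these groups did not overlap, and the difference of −1.39 did not pass (adjusted p = 0.127).

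The genes of ISG15 conjugation did not pass either, with adjusted p from 0.0681 upwards in the 4 of 5 that were tested. ISG15 itself had 982, 1092 and 910.3 normalized counts in non-stimulated cells, 1088, 919.9 and 935 with flagellin and 971, 961 and 1795 with ADP-heptose. Only ADP-heptose replicate 3 was high, and the log2 fold change of 0.32 (adjusted p = 0.351) became −0.04 without it. The conjugating enzyme UBE2L6 had 0 to 14 counts per library. HERC6, grouped here with the ligase HERC5, gave 0.44 (adjusted p = 0.386), and whether it conjugates ISG15 was not tested. USP18, which removes ISG15 from proteins and dampens receptor signalling, was lower in each ADP-heptose library (307, 351 and 310.5) than in each non-stimulated one (406, 379 and 415), with −0.31 and an adjusted p of 0.0681, although 15.4% of its 100-base stretches also occur in USP41.

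Among the other interferon-induced proteins, 4 of 8 were tested, with adjusted p from 0.0957 upwards. IFI27, a mitochondrial protein, had 14 to 29 counts without stimulation and 48 to 70 after ADP-heptose, and its groups did not overlap after scaling (log2 fold change 0.93, adjusted p = 0.0957). IFI35 gave 0.43 (adjusted p = 0.161), IFI6, which limits apoptosis, 0.17 (adjusted p = 0.687) and LGALS3BP 0.14 (adjusted p = 0.412). Without ADP-heptose replicate 3, IFI35 gave 0.15 and IFI6 0.047. LGALS3BP had 26500, 25970 and 26650 normalized counts in non-stimulated cells, 29500, 26760 and 26870 with flagellin and 26680, 26010 and 34680 with ADP-heptose. IFITM2 had 878, 1167 and 887 in non-stimulated cells, 1157, 825 and 753 with flagellin and 863, 875 and 1432 with ADP-heptose. In both genes ADP-heptose replicate 3 was the highest of the 9 libraries, as in ISG15, and without it the log2 fold changes were 0.0026 for LGALS3BP and −0.16 for IFITM2. Over all members, 5 did not overlap and were higher after ADP-heptose (the 4 called genes and IFI27) and 3 were lower (EIF2AK2, MX1 and USP18), compared with 15.4% and 14.7% of all genes.

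Transcript length moved with the position of ADP-heptose replicate 3. Across the 30 tested members, the log2 difference of this library from the mean of ADP-heptose replicates 1 and 2 had Pearson's r = −0.644 with log transcript length, and across 12004 genes r = −0.573. Across the same 12004 genes it also had r = 0.425 with the GC content of transcripts. These are correlations across genes of the same libraries, which are not independent replicates. The 7 members with transcripts under 1500 bases, among them ISG15, BST2, IFI35, IFITM2 and IFITM3, had a median difference of 0.73, whereas the 7 members of 5000 bases or more, among them EIF2AK2, OAS3, SAMD9, PARP9, PARP14 and DTX3L, had a median of −0.41. The exceptions were IFI27 among the short transcripts, at −0.18, and DDX60 among the long ones, at 0.40. ISG20 and IFIH1 differed by 0.28 and −0.23, and MX1, with at most 18 counts in these libraries, differed by 1.25 although its transcript is of middle length.

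**Figure D4:**
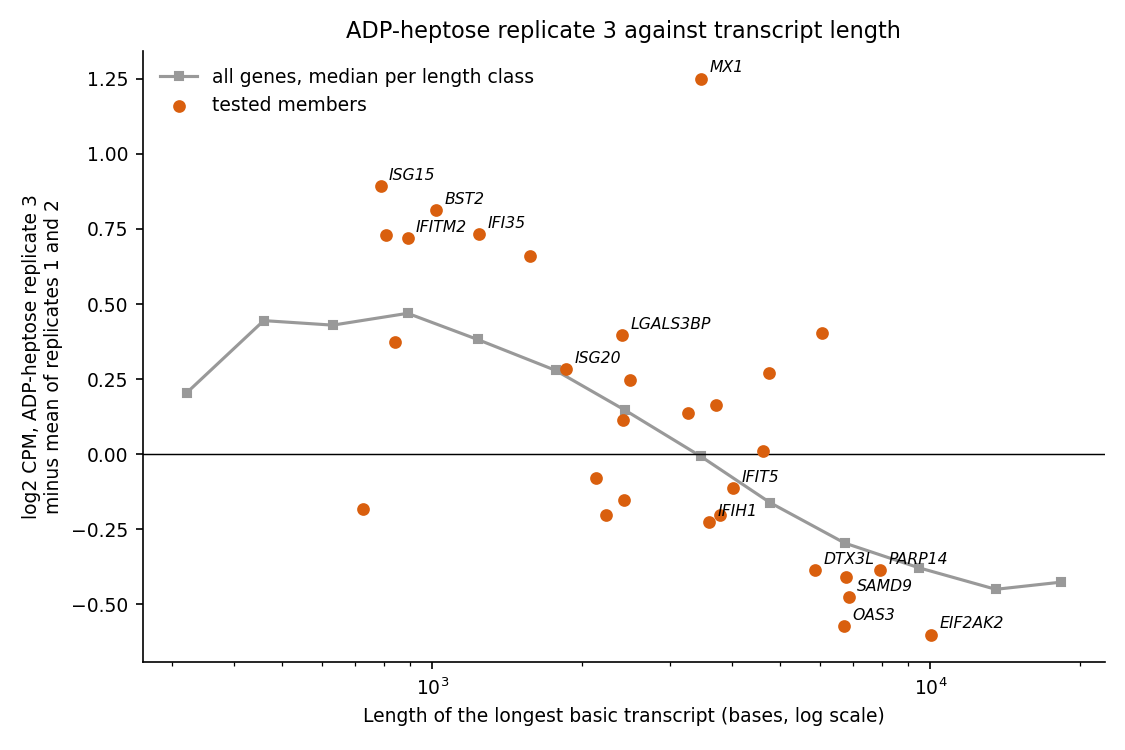
Log2 CPM of ADP-heptose replicate 3 minus the mean of ADP-heptose replicates 1 and 2 (y axis) against the length of the longest basic transcript in bases (log x axis), for the 30 tested members (orange points) and as the median per length class of all genes (grey line). Short members such as ISG15 at 0.89 mostly lie above 0 and long members such as EIF2AK2 at −0.60 mostly below, the same direction as the grey line. ISG15 and EIF2AK2 lie further from 0 than the line. In their length classes the line is at 0.47 (median length 892 bases) and −0.38 (median length 9483 bases).

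Without ADP-heptose replicate 3, 7 members rose and 2 fell, compared with 11.2% and 7.07% of all genes tested. The genes that rose were the 4 named above and DTX3L (0.32, adjusted p = 2.54e-05), OAS3 (0.48, adjusted p = 6.21e-07) and SAMD9 (0.51, adjusted p = 4.19e-08), all with long transcripts. EIF2AK2 fell by 0.20 on the log2 scale (adjusted p = 0.0125) and MX1 fell by 2.01 (adjusted p = 0.0154), and the median of the 30 members was 0.13. When offsets correcting each library for the length and GC content of transcripts were added, chosen after seeing the data, the same 7 genes rose and EIF2AK2 and USP18 fell, against 8.69% and 9.7% of all genes, and the median was again 0.13. The part of RNA quality in this library's position was not tested.

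After flagellin, 1 of the 30 tested members rose, IFIT2, and 0 fell, compared with 0.368% and 0.0115% of all genes. The same non-stimulated libraries served as controls for both stimuli. The median log2 fold change of the members was 0.14 (0.0048 for all genes), DESeq2 called the same counts, and 23 of 30 were above 0 (51.8% of all genes), all but IFIT2 lying within 0.5 of 0. At an unadjusted p under 0.05 there were 4 members (IFIH1, IFIT2, IFIT3 and IFIT5), against 3.78% of all genes. In 8 members the flagellin libraries were all higher than the non-stimulated ones (IFIH1, IFIT2, IFIT3, IFIT5, LGALS3BP, OAS3, PLSCR1 and SAMD9; background 7.66%), and in 1, USP18, all lower (background 5.19%).

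IFIT2 (ENSG00000119922, chr10:89283694-89309276) encodes a relative of IFIT1 that binds RNA and restricts viral translation. Its normalized counts were 68.1, 67.3 and 89.7 in non-stimulated cells, 175, 170.5 and 140.4 with flagellin and 76.7, 103 and 99.6 with ADP-heptose. The flagellin libraries were all above the other 6, and the ADP-heptose libraries overlapped with the non-stimulated ones. IFIT2 rose 2.16-fold after flagellin (log2 fold change 1.11 ± 0.19 SE, adjusted p = 0.025, edgeR), compared with 0.31 after ADP-heptose (adjusted p = 0.336). With 60 to 169 counts per library it was among the lower members, and the call was lost without flagellin replicate 1 or 2 or non-stimulated replicate 1 or 2, the adjusted p then being 0.151 to 0.184 with log2 fold changes of 1.04 to 1.06. Of its exon bases 10.3% overlap with AL353751.1 on the same strand or LIPA on the opposite strand, and reads there cannot be told apart.

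The neighbouring IFIT genes had the same sign after flagellin without passing. IFIT3, shown after its values were seen, had 241, 248 and 244 normalized counts without stimulation and 347, 323 and 258 after flagellin, a log2 difference of 0.34 (edgeR adjusted p = 1). IFIT5 had 333, 351 and 383 after flagellin, all above the non-stimulated 283 to 289, with 0.31 (adjusted p = 0.831), and IFIT1 gave 0.31 (adjusted p = 1). ISG20 and IFIH1 gave 0.43 (adjusted p = 1) and 0.31 (adjusted p = 0.579) after flagellin, the latter with no overlap between groups. The value of ISG20 was 0.047 without flagellin replicate 2 and 0.65 without flagellin replicate 1.

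Compared directly, ADP-heptose libraries were higher than flagellin libraries in ISG20 and IFIH1 and lower in IFIT2, compared with 5.4% of all genes called higher and 2.76% lower. ISG20 was 3.99-fold higher (adjusted p = 0.000137, edgeR) and IFIH1 2.34-fold higher (adjusted p = 1.88e-06), and a difference of at least 2-fold upwards was called in 2.06% of all genes. IFIT2 differed by −0.80 ± 0.18 on the log2 scale (SE, adjusted p = 0.0163), flagellin being 1.74-fold above ADP-heptose. The call for IFIT2 was lost without ADP-heptose replicate 1 (adjusted p = 0.0665) or flagellin replicate 1 or 2 (0.0774 and 0.0747). PARP14 did not pass (0.33, adjusted p = 0.075), with 0.45 without ADP-heptose replicate 3 (adjusted p = 1.63e-07), and IFIT5 differed by 0.10 (95% interval −0.12 to 0.31). Groups did not overlap in 4 members that were higher (IFI27, IFIH1, ISG20 and PARP14; background 14.2%) and 2 that were lower (EIF2AK2 and IFIT2; background 12.8%). The median difference of the 30 members was 0.12, and −0.01 without ADP-heptose replicate 3, where 6 were higher (those called above and DTX3L, OAS3, PARP14 and SAMD9) and 3 lower (EIF2AK2, IFIT2 and MX1), against 10% and 5.14% of all genes in that fit.

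The surrounding pathway was described from lists of ligands, receptors, transcription factors, sensors and further targets, some genes being in more than 1 list. Of 21 interferon ligands, 16 were at 0 in every library. IFNB1, the first type I interferon made by most infected cells, had 4 counts in ADP-heptose replicate 1 and 0 in the other 8 libraries, and IFNA5 had 2, 2 and 0 counts after ADP-heptose. The only ligand high enough to test was IFNE, an epithelial type I interferon, with 92, 93 and 87 counts after ADP-heptose, 23, 38 and 34 after flagellin and 31, 33 and 15 without stimulation. Scaled for depth, IFNE rose 2.58-fold after ADP-heptose (log2 fold change 1.37, adjusted p = 0.0135, edgeR), and not detectably after flagellin (0.37, adjusted p = 1).

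Of 9 receptor and JAK kinase genes, 6 rose after ADP-heptose and 2 after flagellin, against 7.48% and 0.368% of all genes. IFNAR1 had 1515, 1427 and 1543 normalized counts without stimulation and 2505, 2433 and 2519 after ADP-heptose, an increase of 0.73 on the log2 scale (adjusted p = 1.37e-05), and TYK2 rose by 0.53 (adjusted p = 0.000103). IFNAR2 gave 3.02 (adjusted p = 2.36e-05), but 83.2% of its exon bases overlap with AP000295.1 on the same strand or IL10RB-DT on the opposite strand, so that its reads are uncertain. IL10RB gave 2.54 (adjusted p = 0.00198, edgeR), and 38.1% of its exon bases overlap with AP000295.1 on the same strand, so that its reads are uncertain too. The interferon gamma receptor chains IFNGR1 and IFNGR2 rose by 1.73 and 2.14 after ADP-heptose and by 0.55 (adjusted p = 0.000975) and 0.49 (adjusted p = 0.0116) after flagellin.

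Among the transcription factors, STAT2 gave a log2 difference of −0.14 after ADP-heptose (95% interval −0.38 to 0.10), and IRF9, with 48.4% of its exon bases shared with AL136295.5, gave −0.45 (interval −1.25 to 0.35). In contrast, IRF1, which binds ISRE-like sequences and is itself a target of NF-κB, had 628, 692 and 621 normalized counts in non-stimulated cells, 994, 949.7 and 863 with flagellin and 7603, 7427 and 8695 with ADP-heptose. IRF1 rose by 3.61 on the log2 scale after ADP-heptose (adjusted p = 1.05e-10) and by 0.53 after flagellin (adjusted p = 0.0236). IRF7, the amplifier of interferon alpha transcription, rose by 1.05 after ADP-heptose (adjusted p = 3.75e-05).

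Of 10 sensors and adaptors upstream of interferon 9 were tested. Of these 3 rose after ADP-heptose and 1 after flagellin, against 7.48% and 0.368% of all genes. TICAM1, the adaptor of TLR3, rose by 1.91, the kinase gene IKBKE by 1.69 and CGAS, a DNA sensor, by 0.73 after ADP-heptose (adjusted p = 8.16e-09, 1.28e-08 and 0.00158, edgeR). After flagellin IKBKE rose by 0.50 (adjusted p = 0.0111, edgeR). Of 5 feedback inhibitors 1 rose and 1 fell after ADP-heptose, against 7.48% and 4.42% of all genes. SOCS3 rose by 0.59 (adjusted p = 0.0146) and PIAS1 fell by 0.29 (adjusted p = 0.0362).

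Further interferon-stimulated genes outside the list were also measured. Of 30 such genes 28 were tested, and 10 rose after ADP-heptose, against 7.48% of all genes. The median of the 28 genes was 0.21 on the log2 scale after ADP-heptose and 0.09 after flagellin, against 0.0087 and 0.0048 for all genes. TAP1, the peptide transporter of antigen presentation, rose by 1.51 (adjusted p = 1.36e-06), GBP3, a guanylate-binding protein, by 1.39 (1.19e-06), HELZ2, a helicase, by 1.13 (1.75e-06), TNFSF10, the death ligand TRAIL, by 0.99 (1.06e-05) and APOL6 by 1.08 (6.64e-05). Of 14 targets typical of interferon gamma 10 were tested, 5 rose after ADP-heptose and 1, IRF1, after flagellin, against 7.48% and 0.368% of all genes. CXCL10, a chemokine, had a mean of 80.0 normalized counts after ADP-heptose and 0.748 without stimulation (adjusted p = 0.000269). All 10 NF-κB targets on a further list rose with both stimuli, against 7.48% of all genes after ADP-heptose and 0.368% after flagellin. Their median log2 fold changes were 5.45 after ADP-heptose and 2.29 after flagellin. This list was chosen with earlier results of these data known, so that it is no independent check.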

How the data were processed

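Poly(A) RNA of 9 HT-29 libraries, 3 each without stimulation, with flagellin and with ADP-heptose, was sequenced in paired-end reads. The study describes the libraries as independent experiments, and p-values measure the spread between them. Per the labels, the authors aligned reads with HISAT2 and counted them per gene with featureCounts. Versions, genome build, annotation and strand setting are not given in the sources used here. The deposited values are raw counts, without normalization. Among 62972 lines, repeats of 232 identifiers carried the same counts and were dropped, which left 62710 identifiers, of which 58274 (92.9%) were in GENCODE 29 (GRCh38), the source of positions and lengths.

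Genes were filtered with filterByExpr in edgeR 4.0.16 (R 4.3.3), scaled by TMM and tested by the quasi-likelihood test in 1 fit of all 9 libraries with 3 contrasts, and p-values were adjusted by Benjamini-Hochberg over 17412 genes. For normalized counts, each library was rescaled from its effective size to the geometric mean of all effective sizes. All members were accounted for, with every library's value for those called in any contrast and for the 3 highest per kilobase of exon, and at most 6 called genes were named per further list, besides ligands, receptors and transcription factors. Some results are not reported here. The members and lists were chosen with earlier results of these data known. Alternatives were other normalizations (DESeq2 1.42.0 size factors, library totals), DESeq2's test, other filters, 6-library fits, a replicate block, a 2-fold threshold, each library left out and, chosen after seeing the data, offsets for transcript length and GC content. The script was tested on simulated data. Exact permutation of 3 against 3 libraries cannot give p below 0.1 and was not used. Totals of 30770448 to 58272772 counts set the precision, and floors cover counting error only.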

Additional observations from a re-analysis of the deposited data

How the results depend on the processing

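ISG20 and IFIH1 kept their calls after ADP-heptose, against both other groups, under every alternative tried. Of the other calls, IFIT5 and PARP14 after ADP-heptose passed in 10 and 6 of 17 refits, and IFIT2 in 12 (flagellin against non-stimulated) and 14 (ADP-heptose against flagellin). After ADP-heptose against non-stimulated cells, 2 members were higher and 2 lower with library totals (median 0.11), 8 and 1 of 38 without the filter on low counts (5.28% and 3.29% of 33281 genes), 7 and 2 with offsets for length and GC (8.69% and 9.7% of all genes, median 0.13), and 2 higher at a 2-fold threshold. Leaving out 1 library gave 2 to 7 higher, 0 to 2 lower and a median of 0.13 to 0.29, the highest counts being those without ADP-heptose replicate 3. After flagellin the median was 0.10 without the filter, and leaving out 1 library gave 0 to 1 higher, 0 lower and a median of 0.0946 to 0.13. ADP-heptose against flagellin gave 4 higher and 2 lower without the filter, 5 and 2 with the offsets (median 0.0604), 0 lower at a 2-fold threshold and a median of 0.0033 with library totals, where IFIT5 changed sign to −0.0206. Leaving out 1 library gave 2 to 6 higher, 0 to 3 lower and a median of −0.0088 to 0.14. Apart from the libraries and genes removed, the cause was not tested.

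With the replicate block, 2 members were higher after ADP-heptose and 0 after flagellin (IFIT5 adjusted p = 0.0508, PARP14 0.0699 and IFIT2 0.0987, edgeR). Same-numbered libraries deviated together (correlation over 0.1) in 2 of 9 pairs, with correlations from −0.379 to 0.221. These values cannot decide whether the numbers are pairs, because deviations within the ADP-heptose group moved with transcript length. Non-stimulated replicate 2 gave −0.376, −0.379 and 0.428 with ADP-heptose replicates 1, 2 and 3. The main fit took no pairs, and whether the numbers are pairs remains unknown. Members under 100 counts per library, 7 of those tested, had wide intervals, and a change in them of less than about their interval was not detectable at this depth.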
